A study of Mus musculus with 346 samples.

Results

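The cytosolic ribosomal protein genes encode the proteins of the ribosome that translates nuclear messages. They were taken by name: every row of the expression table that starts with Rpl or Rps and a number, with at most a short suffix, plus the stalk genes Rplp0 to Rplp2 and Rpsa, and without names that carry the pseudogene mark -ps. This gave 84 of the 20474 genes, 49 of the large subunit and 35 of the small subunit. The rule selects by name and uses no measured value.

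Single cells were dissected from mouse embryos with a Prox1-EGFP transgene (genotype Prox1-GFP), sorted on green fluorescence and sequenced by Smart-seq2, which reads full-length transcripts from single cells. At embryonic day (E) 8.5 the foregut gave 82 cells (plate 1A), at E10.5 the dorsal pancreas gave 86 (48 on plate 2A and 38 on plate 2B), the ventral pancreas 27 (plate 3) and the liver 78 (plate 5A), and at E14.5 the pancreas gave 73 (plate 4A). All groups carry the same transgene and passed the same gate, so there is no group without it. Prox1 codes for a homeobox factor active in the young liver and pancreas. Its level was 1.18 ± 2.62 (SD over cells) in the E14.5 cells with Col1a1, 4.51 ± 3.65 in the liver cells with little Afp and 5.13 ± 2.39 in the foregut, against means of 8.23 to 11.52 in the other sets described below. No animal is named, so each set of cells counts as 1 sample, every SD is a spread over cells, and no test between sets was possible. Plate and tissue cannot be told apart except in the dorsal bud, which is on 2 plates.

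Following the rule, the liver plate was split at an Afp level of 10 and the E14.5 plate at a Col1a1 level of 5. Levels are the deposited log2(normalized reads + 1) unless another scale is named. Afp is the fetal liver's alpha-fetoprotein, and 46 cells were Afp-high and 32 Afp-low. The lowest Afp-high cell stood at 11.60 and the highest Afp-low cell at 6.57, with 25 Afp-low cells at 0. Col1a1 is a collagen gene of mesenchyme: 58 cells were Col1a1-positive, the lowest at 8.47, and all 15 Col1a1-negative cells were at 0.

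The cells' markers were set against the labels before the results. Of 8 hepatoblast markers, all were detected in at least 50% of Afp-high cells and none in 50% of Afp-low cells, in which Epcam and Cdh1 were at 0. The E14.5 plate is labelled pancreatic epithelium, but its Col1a1-positive cells had 7 of 8 mesenchymal markers and 0 of 6 epithelial markers in 50% of cells, with Epcam, Krt8, Krt19 and Cldn6 at 0. Its Col1a1-negative cells had 4 of 6 epithelial and 5 of the 9 measured endocrine markers. The foregut cells are labelled endoderm, but had 0 of 6 epithelial and 4 of 5 neural markers in 50% of cells, and Pdx1 was at 0. Reads per cell ran from 510222 to 3431728. The median number of genes detected (at least 5 normalized reads) went from 2303 in the Afp-low set to 5794 in the foregut.

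A ribosome holds one copy of most of its proteins, and cells that grow make their messages in large and roughly matched amounts. Most of these messages begin with a C followed by a run of C and T, called a TOP motif (terminal oligopyrimidine), through which mTOR signalling and the protein Larp1 set how strongly they are translated. Ribosomal protein genes also have many processed copies in the genome, and a few have a functional paralogue, such as Rps27l beside Rps27 or Rpl22l1 beside Rpl22.

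The starts of a few members show this shared feature and its absence. Sequences are RefSeq promoters on GRCm38.p6, in which 61 of the 84 members had an entry. Each window holds 20 bases before and 10 bases from the listed start base, 5′ to 3′ on the gene's strand, and capitals mark the unbroken run of C and T from that base. The first 5 have a TOP start, read here as C followed by at least 4 C or T, and the last 3 do not. Rps27 and its paralogue Rps27l are shown because their levels parted between tissues, and Rpl7l1 and Rpl24 because they stood outside the other members.
Rps6: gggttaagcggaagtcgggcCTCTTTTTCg (chr4:86857358-86857387, minus strand)
Rpl28: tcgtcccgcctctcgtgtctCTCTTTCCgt (chr7:4792945-4792974, plus strand)
Rpl35: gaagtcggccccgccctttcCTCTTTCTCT (chr2:39005122-39005151, minus strand)
Rps10: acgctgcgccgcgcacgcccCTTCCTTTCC (chr17:27635235-27635264, minus strand)
Rps27: acaggatttccgctttcgctCCTTTCCggc (chr3:90213639-90213668, minus strand)
Rps27l: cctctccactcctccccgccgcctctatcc (chr9:66946066-66946095, plus strand)
Rpl7l1: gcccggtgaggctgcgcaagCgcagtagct (chr17:46782647-46782676, minus strand)
Rpl24: taggaagaaagctgttgctaggaaacagac (chr16:55966255-55966284, plus strand)

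Rps6 is the small subunit protein that S6 kinase phosphorylates, and Rps27 a small subunit protein at the mRNA exit. Of the 61 members, 14 (22.95%) had a TOP start at a listed start, against 3.01% of all 27025 genes with a promoter. Most members thus had none there, among them Rpl4 and Rplp0, which were among the highest per kilobase. The lack of one therefore does not set Rps27l, Rpl7l1 and Rpl24 apart. With the start allowed to lie within 10 bases, 37 members (60.7%) and 34.4% of all genes had one. In the 300 bases around the start (250 before and 50 after), CCGGAA or its reverse complement TTCCGG was in 55.7% of members and 16.7% of all genes. GATGGC or GCCATC was in 26.2% against 15.9%, GGGCGG or CCGCCC in 62.3% against 38.2%, and TATAAA or TTTATA in 13.1% against 15.7%. Matches to different motifs can share bases at their ends, as CCGCCC and CCGGAA can. A match describes letters only, and the listed start may not be the one used in these cells.

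The summed level was highest in the foregut and in the Afp-high liver cells. Here the summed level is the percent of a cell's reads that fell in the 84 genes, so it does not depend on the size factors of the table. Its lowest, median and highest values in the foregut were 2.53%, 4.21% and 11.98% of reads. In the Afp-high liver they were 2.75%, 3.73% and 8.18%, and in the Afp-low liver 1.31%, 2.5% and 3.75%. Every one of the 46 Afp-high cells lay above the Afp-low median, and 21 of them lay above every Afp-low cell, so the 2 sets of this plate overlapped in part.

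The remaining sets lay close together. The dorsal bud ran from 1.76% over a median of 2.62% to 5.37% on plate 2A. On plate 2B it ran from 1.75% over 3.02% to 4.23%. The ventral bud, on a plate of its own, ran from 1.44% over 2.89% to 3.77%. These 3 sets overlapped over most of their range. The medians of the 2 dorsal plates were 0.39 percentage points apart, but the plates differ in their cells: 7 of 48 on 2A and 13 of 38 on 2B lacked Epcam. Among cells with Epcam the order turned, with medians of 2.55% on 2A and 2.43% on 2B. At E14.5 the Col1a1-positive cells ran from 1.67% over 2.60% to 4.43%. The Col1a1-negative cells had the lowest median of the 8 sets, 2.05%, with a range of 1.21% to 3.5%.

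**Figure D1:**
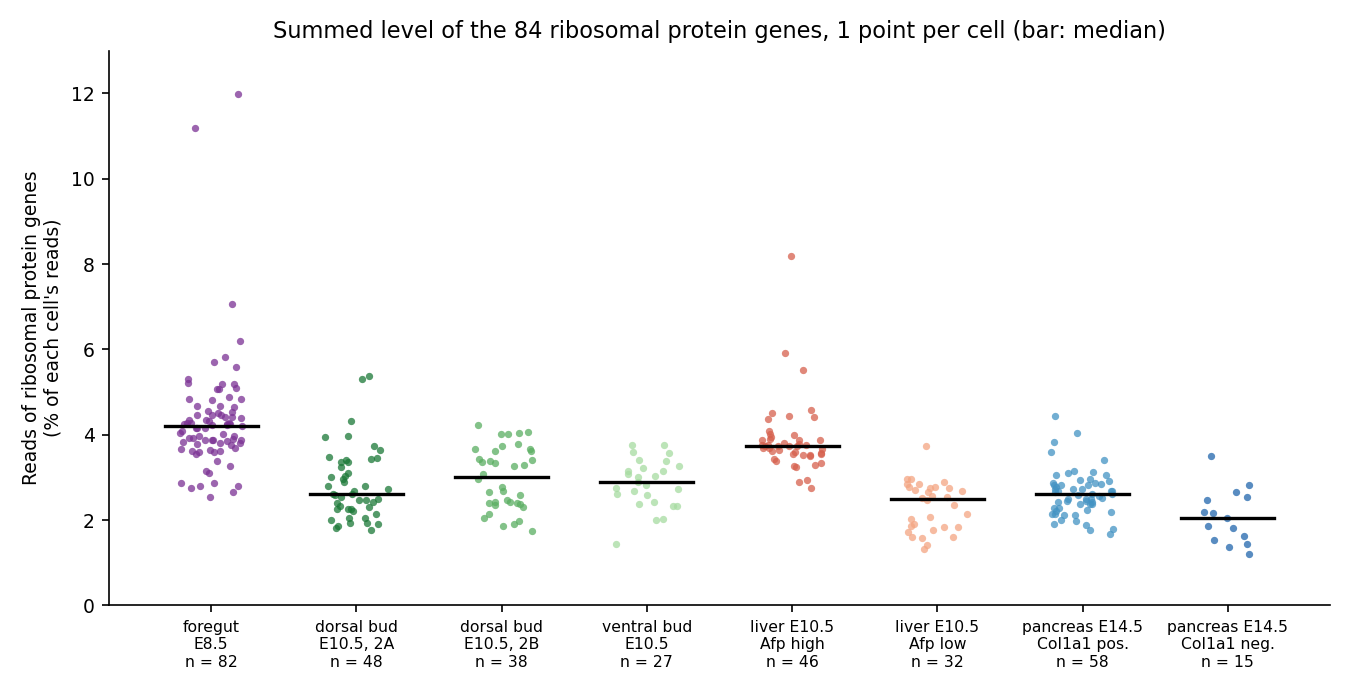
Percent of each cell's reads in the 84 ribosomal protein genes (vertical axis, linear from 0) for the 8 sets of cells (horizontal axis); each point is 1 cell and each bar the median of a set. The foregut (median 4.21%) and the Afp-high liver (3.73%) stand above the other sets (2.05% to 3.02%), and 2 foregut cells lie above 11%.

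Against the dorsal bud as a whole (median 2.70%), 80 of 82 foregut cells and all 46 Afp-high cells lay above its median. The ratio of medians was 1.56 for the foregut and 1.38 for the Afp-high liver, 1.07 for the ventral bud, 0.963 for the Col1a1-positive and 0.759 for the Col1a1-negative cells. These ratios share the dorsal cells. Other markers moved with these sets. The summed neural markers (5 genes, log2 levels) had a median of 31.3 in the foregut (range 0 to 41.7). This median was 5.81 in the Col1a1-negative cells and 0 in the other sets. In the Col1a1-negative cells 3 of the 5 neural genes (Nrcam, Sox2 and Crabp1) were at 0. Their value therefore rests on Rfx4 and Pax6 alone and does not show a shared neural profile. The summed mesenchymal markers (8 genes) had a median of 24.4 in the Afp-low liver (highest cell 53.96) and 0 in the Afp-high liver (range 0 to 7.52). The Afp-low set was not uniform: 3 of these 8 genes were detected in at least 50% of its cells. Its highest cells reached summed levels of 62.8 for cardiac, 50.1 for leukocyte and 36.7 for endothelial markers, with medians of 2.94, 0 and 0. Cycling markers differed between the sets too. The summed G2/M markers (5 genes) had medians of 39.1 in the foregut, 38.4 in the Afp-high and 8.72 in the Afp-low liver, 11.6 and 31.4 on dorsal plates 2A and 2B, 17.3 in the ventral bud and 0 in both E14.5 sets. The summed S phase markers (6 genes) went from 55.1 in the foregut to 8.54 in the Col1a1-negative cells. The part of these markers in the summed level was not tested. The foregut holds 4 of the 6 cells with the highest summed level (11.98%, 11.2%, 7.06% and 6.21%), and the Afp-high liver the other two (8.18% and 5.92%). The largest member took 3.93% to 8.12% of the ribosomal protein reads in those cells, and it was Rplp0 in 5 of them. Without these 6 cells the medians were 4.16% in the foregut and 3.73% in the Afp-high liver.

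Within the dorsal bud the summed level went with the epithelial marker Epcam, a surface protein of epithelium; this split was chosen after the values were seen. On plate 2B the 25 cells with Epcam (at least 5 normalized reads) ran from 1.75% to 4.07% around a median of 2.43%. The 13 cells without it ran from 3.27% to 4.23% around 3.67%, so the 2 sets overlapped between 3.27% and 4.07%. On plate 2A the medians were 2.55% in 41 cells with Epcam and 3.94% in 7 cells without. The cells without Epcam also differed in other markers. On plate 2B their summed mesenchymal markers had a median of 20.8, against 3.77 with Epcam, and their summed S phase markers 50.1 against 36.9 (sums of log2 levels). On plate 2A those medians were 22.6 against 0, and 44.6 against 29.7. The part of these markers in the result was not tested. In the foregut the medians were 4.04% in 12 cells with Epcam and 4.23% in 70 without.

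Other properties of a cell moved with the summed level too. Over the 38 cells of plate 2B, Spearman's rho with the mean level of 23 ribosome biogenesis genes was 0.81, with 6 S phase genes 0.78 and with 6 epithelial genes -0.62. On plate 2A (48 cells) these were 0.44, 0.49 and -0.21, and in the foregut (82 cells) 0.39, 0.29 and -0.38. In the Afp-high liver (46 cells) they were -0.27, -0.01 and -0.22, and rho with the mitochondrial share of reads was 0.53. All these points share the cell's library and depth.

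The subunits kept a near constant balance. Reads of the large subunit made up a median of 2.41% and of the small subunit 1.77% of reads in the foregut, and 1.14% and 0.882% in the Col1a1-negative cells. The ratio of large to small subunit reads had a median of 1.32 over all cells, and the medians of the sets ran from 1.19 in the ventral bud to 1.36 in the foregut. Single cells ran from 0.812 to 2.37, the lowest in the Afp-low liver and the highest among the Col1a1-negative cells. The stalk genes Rplp0, Rplp1 and Rplp2, whose proteins recruit the elongation factors, made up 0.364% of reads in the foregut and 0.133% in both the Afp-low and the Col1a1-negative cells (medians).

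Most members were found in nearly every cell. Of the 84, 75 were detected in at least 90% of all cells and 80 in at least 25%. Rps3a2 and Rps3a3, annotated as processed pseudogenes, were detected in 1 and 3 cells, and Rpl32l, another processed pseudogene in the annotation, in 5. The fourth was Rpl24, a large subunit protein and the only one of the 80 protein-coding members near 0: its mean level was 0.53 and it was detected in 26 cells. Of the 50-base windows of the Rpl24 transcript, 81.7% also occur in another annotated gene, and Gm28037, which has no row in the table, overlaps 46.99% of its exon bases on the same strand. How the authors counted reads of shared sequence is not stated, and its part in this level was not tested. Rpl35 (95.1% of windows shared) and Rpl5 (93.8%) were detected in all cells. There the gene with the largest exon overlap lies on the opposite strand. Wdr38 overlaps 66.2% of the Rpl35 exon bases and Fam69a 24.3% of those of Rpl5. Whether the strand of an overlap matters for these levels was not tested.

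Sharing was common. The median member shared 47.6% of its 50-base windows with another annotated gene, and 39 members shared at least 50%. Over the 80 members detected in at least 25% of cells, rho between this share and the reads per kilobase was 0.13, a weak relation. The 120 ribosomal rows marked -ps, left out by the rule, together held at most 0.007% of reads in the median cell of any set. Copies without that mark, such as Gm10288 for Rpl11, were not summed.

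Per kilobase of transcript, the scale used here to compare genes, levels differed 31.5-fold among those 80 members. Rps14, a core protein of the small subunit, stood highest with a mean of 1874 normalized reads per kilobase over all cells. High levels were also those of Rpl4 (1840 per kilobase) and Rplp0 (1524). The median member had 467 and the middle of the distribution, from the lower to the upper quartile, spanned 248 to 698. Lowest were Rps15a (59.4), Rpl13a (72.2), Rpl23a (86.5), Rpl22 (99.0) and Rps20 (99.8). Rpl13a and Rpl23a share 57.4% and 85.7% of their windows with another gene, and Tlcd1 overlaps 59.7% of the Rpl23a exon bases on the opposite strand. The part of this in their levels was not tested. The transcript length used for Rps15a is 5179 bases and for Rps20 3706, against a median of 910, so their low rank rests on that length. With the union of all exons as the length, the ranks of the members correlated with these at rho 0.88.

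**Figure D2:**
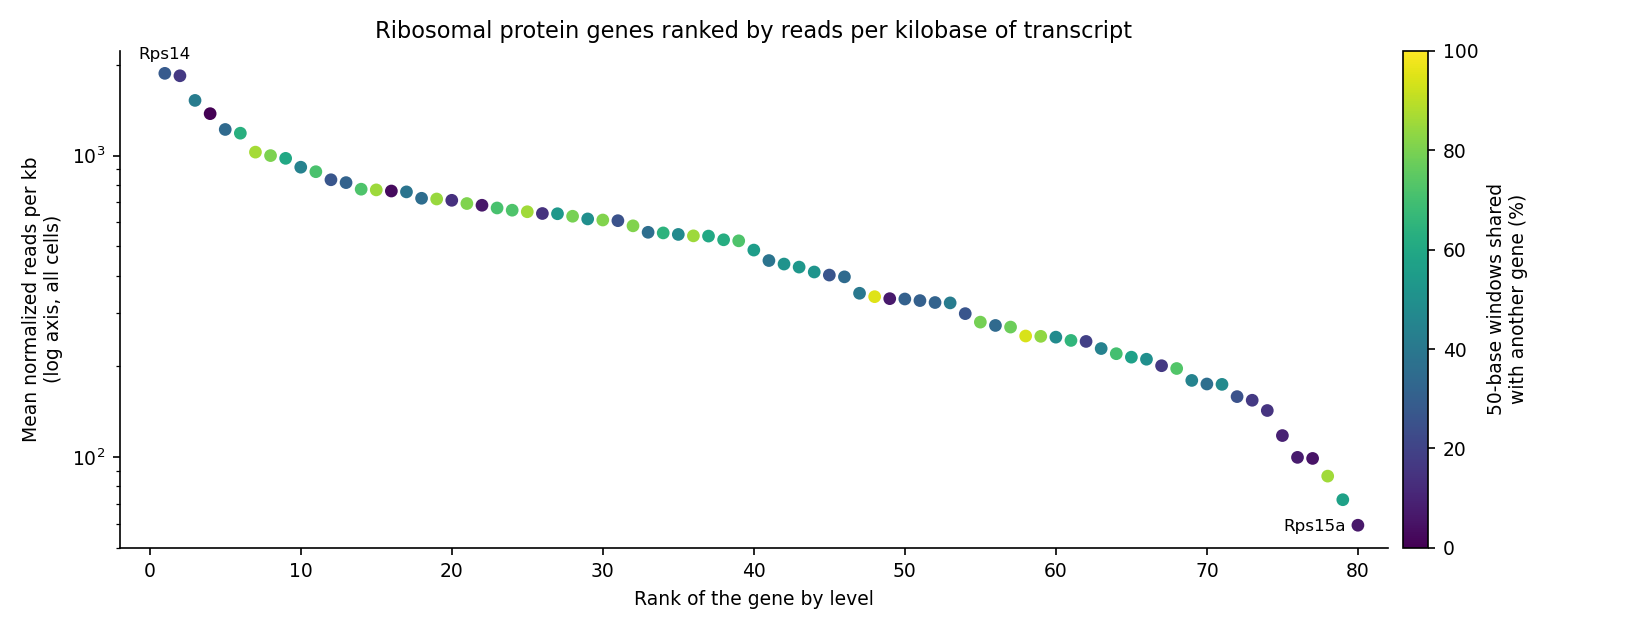
Mean normalized reads per kilobase of transcript over all cells (vertical axis, log scale) for the 80 members detected in at least 25% of cells, ranked from left to right and coloured by the percent of 50-base windows shared with another gene. Levels run from 1874 (Rps14) to 59.4 (Rps15a), and pale and dark points occur along the whole range.

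Between sets, differences of single members were set beside those of all 8521 genes with a mean of at least 1 over all cells. A member counts as higher or lower where the mean log2 level differed by at least 1. Within the liver plate, the Afp-high cells had higher means than the Afp-low cells for all 84 members, a count not made over all genes. The median difference was 1.67, against 0.56 over all genes tested. By this count 69 members were higher and 0 lower, where 36.6% of all genes were higher and 7.11% lower. With each cell scaled to its total reads, the median was 1.31 and 57 members were higher, beside 32.3% of all genes. The share of all genes depends on which are counted: of the 839 with a mean of at least 6, nearer to most members, 68.2% were higher on the deposited scale. The Afp-high set also had more detected genes (median 3103 against 2303), and 11 of the 32 Afp-low cells had under 2000.

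Members farthest from that median were named by rule. Rpl7l1, a large subunit paralogue found in the nucleolus, had the largest difference: 7.65 ± 3.28 (SD over 46 cells) in Afp-high and 2.65 ± 4.00 (32 cells) in Afp-low cells, in which its median was 0. Rps10, a small subunit protein with a TOP start above, stood at 8.20 ± 0.77 and 4.79 ± 3.32. Rpl12, next to the stalk base, stood at 8.50 ± 1.58 and 5.18 ± 3.45. The SD of the Afp-low cells was over 3 for all 3 genes, and some of these cells were at 0. Rps10 was detected in 21 and Rpl12 in 23 of 32 Afp-low cells, and in 46 and 45 of 46 Afp-high cells. At the other end Rps4l, Rpl32l and Rps3a3 differed by 0.23, 0.26 and 0.21.

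The E14.5 plate showed a smaller difference. Col1a1-positive minus Col1a1-negative cells gave a median of 0.45, against -0.11 over all genes, with 16 members higher and 1 lower; 16.9% of all genes were higher and 25% lower. Scaled to total reads the median was 0.26, with 8 higher and 2 lower, beside 15.9% and 27.1% of all genes. Rpl36a, a large subunit protein, stood at 7.52 ± 1.34 (58 cells) in the positive and 5.19 ± 2.83 (15 cells) in the negative set. For Rpl7a, the values were 7.71 ± 2.07 and 5.66 ± 3.01, and for Rps3a1 8.82 ± 0.97 and 7.27 ± 2.4. Rps4l went the other way with 2.94 ± 3.86 and 5.74 ± 3.67. Rps10 (5.56 ± 2.71 and 6.37 ± 1.12) and Rpl28 (6.38 ± 2.06 and 7.04 ± 0.56) were the next lowest.

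The 2 dorsal plates are the same tissue and stage, with the unequal share of cells without Epcam given above. Plate 2B minus 2A gave a median of 0.13, against 0.48 over all genes. Only Rps4l passed a difference of 1, with 6.69 ± 2.30 on plate 2B and 3.48 ± 3.63 on 2A, and no member was lower; 29% of all genes were higher and 6.95% lower. Rps27 had the lowest difference (-0.85), at 8.18 ± 0.36 (range 7.19 to 9.0) on 2B against 9.04 ± 0.58 (7.54 to 9.98) on 2A. Rps28 and Rps19 came next, with -0.42 and -0.37. Rpl7l1 and Rpl12 differed by 0.90 and 0.88, and both are again among the named members of other comparisons below.

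The next 5 comparisons put another set against the 86 dorsal cells and therefore share them. Foregut minus dorsal had a median of 0.71 over the members and 0.55 over all genes. Above 0 were 83 of 84 members, a count not made over all genes. There were 14 higher and 0 lower members, where 30.9% of all genes were higher and 6.9% lower. With a pseudocount of 10 there were 11 higher, beside 11.5% of all genes, and with a pseudocount of 0.1 the median of all genes (0.84) was above that of the members (0.73). Rpl7l1 stood at 8.18 ± 1.57 against 6.23 ± 3.24, Rpl12 at 8.31 ± 0.68 against 6.73 ± 1.85, and Rps21, a small subunit protein, at 7.65 ± 0.75 against 6.21 ± 1.07. The lowest differences were those of Rpl32l, Rps3a3 and Rps3a2, which are near 0 everywhere. With the foregut and dorsal cells restricted to those with Epcam, the median was 0.92, against 0.56 over all genes, and 26 members were higher, beside 35.3% of all genes.

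Ventral minus dorsal gave -0.14 over the members and -0.73 over all genes. There were 0 higher and 1 lower member (Rpl13a, 3.84 ± 2.78 against 4.85 ± 1.98), where 3.7% of all genes were higher and 38.4% lower. Rpl10 and Rpl8 followed with -0.85 and -0.83. Rpl35, a large subunit protein at the exit tunnel, was farthest above the median, at 8.04 ± 0.69 against 7.31 ± 0.64, followed by Rpl12 and Rps12 (both 0.55). As a ratio of linear means, the medians were -0.0013 for the members and 0.01 for all genes.

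Afp-high liver minus dorsal depended on the scaling. On the deposited scale the median was 1.10, against -0.95 over all genes. The count was 53 higher and 1 lower member, where 13.6% of all genes were higher and 48.3% lower. Scaled to total reads the median was 0.40, with 13 higher and 1 lower beside 9.19% and 54.2% of all genes, whose median was -1.14. With median-of-ratios scaling it was -0.05, with 2 higher and 4 lower beside 6.77% and 60.4% of all genes, whose median was -1.32. Of the genes with a mean of at least 6, 41.4% were higher on the deposited scale. The median normalized total per cell was 1705216 in the Afp-high set and 1052936 in the dorsal bud. Relative to all genes the members' median was above 0 under each of these scalings, by 2.05, 1.54 and 1.27. A scaling moves the members and the other genes of a cell nearly alike, so these values are not separate evidence. As a ratio of linear means the relative value was 0.79. Rps27l was farthest above the members' median, at 9.86 ± 0.82 against 7.52 ± 0.96. Rpl23a was also far above it, at 6.72 ± 0.85 against 4.57 ± 0.89. Rps4l, Rpl22 and Rps20 were farthest below, with -1.26, -0.15 and 0.08, and -1.64, -0.80 and -0.61 when scaled to total reads.

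At E14.5, Col1a1-positive minus dorsal gave -0.30 over the members and -1.23 over all genes, with 0 higher and 9 lower members; 4.2% of all genes were higher and 58.4% lower. The number lower turned on the scale: 12 scaled to total reads, 41 with median-of-ratios scaling (median -0.98), 1 with a pseudocount of 10 and 0 as a ratio of linear means, where all genes (0.14) lay above the members (-0.07). Rpl13a stood at 2.70 ± 2.94 against 4.85 ± 1.98, Rpl22 at 5.05 ± 3.21 against 7.10 ± 1.64, and Rps4l at 2.94 ± 3.86 against 4.90 ± 3.49. Rps27, Rpl35 and Rplp1 were farthest above, with 0.67, 0.51 and 0.42.

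Col1a1-negative minus dorsal gave -0.77 over the members and -1.03 over all genes. There were 0 higher and 30 lower members, where 5.88% of all genes were higher and 51.2% lower. With median-of-ratios scaling 47 were lower and as a ratio of linear means 12, beside 57.1% and 29.6% of all genes. In the latter the members' median (-0.56) lay below that of all genes (-0.21). Rpl7a stood at 5.66 ± 3.01 against 8.02 ± 1.38, Rpl22 at 4.80 ± 3.27 against 7.10 ± 1.64 and Rpl39, a small protein of the exit tunnel, at 3.61 ± 2.52 against 5.90 ± 1.19. Rps4l (0.85), Rps28 (0.10) and Rpl32l (0.03) were farthest above.

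**Figure D3:**
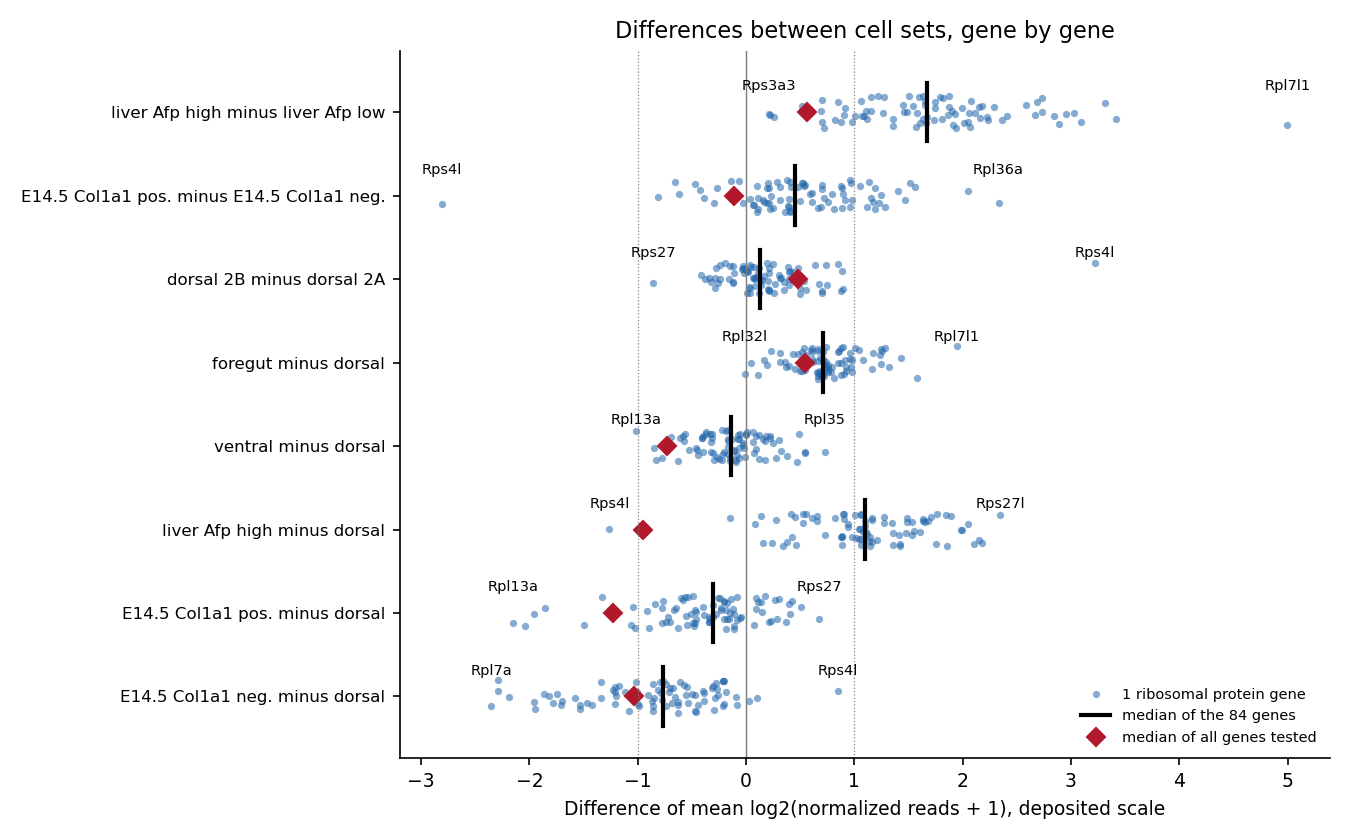
Difference of mean log2(normalized reads + 1), deposited scale (horizontal axis), for 8 comparisons (vertical axis); blue points are the 84 members, black bars their median, red diamonds the median of the 8521 genes tested, dotted lines a difference of 1, and the lowest and highest member are named. The members' median lies above the diamond in every row but the dorsal plates (0.13 against 0.48) on this scale, though under another pseudocount or as a ratio of linear means this order turned for the foregut, ventral and both E14.5 sets minus dorsal, and between the dorsal plates. Rps4l or Rpl7l1 is an extreme member in 6 of the 8 rows.

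Which set held a member's highest mean also turned on the scaling. On the deposited scale 69 members were highest in the Afp-high liver and 12 in the foregut. Scaled to total reads 26 were highest in the Afp-high liver and 54 in the foregut. The lowest mean was in the Col1a1-negative or the Afp-low cells for 72 members on the deposited scale (52 and 20) and for 73 when scaled (32 and 41). These counts were not made over all genes, so they do not show a trait of the members. Detected genes also differed between sets, from a median of 2303 in the Afp-low set to 5794 in the foregut.

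The make-up of the ribosomal protein reads does not depend on scaling and shows which members stood out. The 5 members with the most reads, Rpl4, Rplp0 and Rps14 among them, held a median of 21.3% to 23.8% of them in every set. For 78 members the median share was above 0 in each set, and the highest set was a median of 1.82-fold above the lowest. It was under 2-fold for 55 members and at least 3-fold for 4.

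Those 4, of which Rpl37a was not among the members named by rule and was chosen after its values were seen, are all of the large subunit. Rpl13a, a protein also known outside the ribosome, held 0.230% of the ribosomal protein reads in the Afp-high liver and 0.0087% in the Col1a1-positive cells, where it was detected in only 27 of 58 cells. Of its windows, 57.4% also occur in Gm45713, which overlaps 29.4% of its exon bases on the same strand. Gm45713 is not among the genes measured, and its part in the level of Rpl13a was not tested. Rpl37a held 1.11% in the Col1a1-negative cells and 0.286% in the Afp-low liver. Rpl7a held 1.82% in the Afp-high liver and 0.555% in the Col1a1-negative cells. Rpl12 held 0.736% in the ventral bud and 0.233% in the Col1a1-negative cells. Rps27l took 1.41% in the Afp-high liver, and at most 0.982% in any other set.

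**Figure D4:**
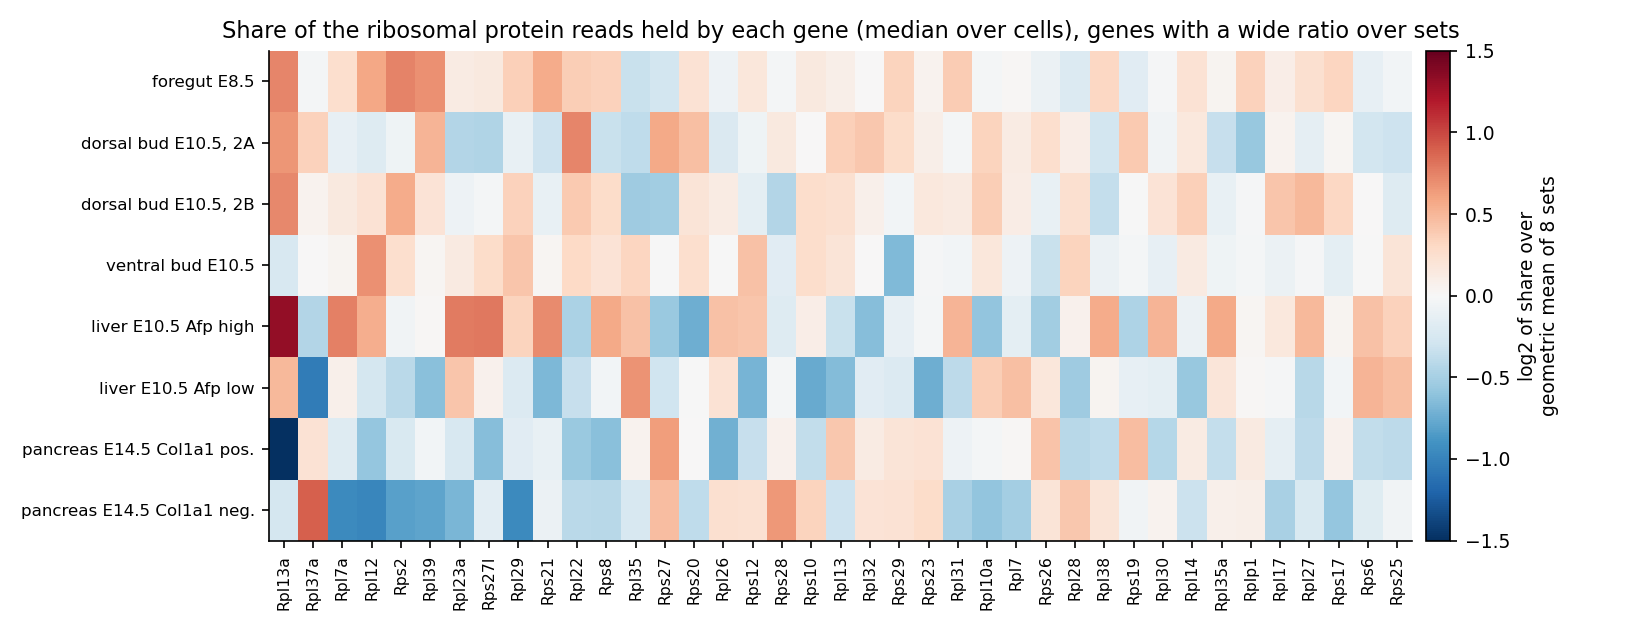
Share of the ribosomal protein reads held by a gene (median over cells) relative to its geometric mean over the 8 sets, on a log2 colour scale limited to -1.5 to 1.5, for genes (columns) with a wide ratio between sets (rows). Rpl13a is darkest red in the Afp-high liver (0.230% of those reads) and darkest blue in the Col1a1-positive cells (0.0087%).

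Paralogues were compared with their parent gene inside each cell, so that size factors play almost no part. Rps27l, a p53 target and paralogue of Rps27, was above Rps27 in 39 of 46 Afp-high cells. The difference there was 0.75 ± 0.82 on the log2 scale (range -1.52 to 2.59). On dorsal plate 2A it was -1.84 ± 0.88 and Rps27l was higher in 0 of 48 cells, while on plate 2B it was -0.25 ± 0.74 and higher in 18 of 38 cells. The 2 dorsal plates thus differed by about as much as the foregut (-0.30 ± 0.63) and plate 2A. In the Col1a1-positive cells it was -2.71 ± 2.70, with Rps27l higher in 3 of 58. Of the pair's reads Rps27l held 61.7% in the Afp-high liver, 41.2% in the Afp-low liver, 23.9% and 47.8% on dorsal plates 2A and 2B and 20.9% in the Col1a1-positive cells. Of the Rps27 windows, 63.1% occur in another gene (all of those in Rps27rt), against 13.7% of the Rps27l windows.

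Rpl22l1 was closer to Rpl22, an RNA-binding protein whose loss is known to raise its paralogue. It held 37.03% of the pair's reads in the foregut, 30.96% and 36.3% on the dorsal plates and 25.8% in the ventral bud. In the Afp-high liver, the Afp-low liver and the Col1a1-positive cells it held 49.5%, 49.9% and 50.4%, but 27.4% in the Col1a1-negative cells. The within-cell difference ran from -1.11 ± 3.82 in the ventral bud to 1.19 ± 3.54 in the Afp-low liver. These differences were smaller than the spread between cells.

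Rpl7l1 stood below Rpl7 in most cells. The within-cell difference was -1.54 ± 1.55 in the foregut and -6.47 ± 4.17 in the Afp-low liver, where Rpl7l1 was detected in 9 of 32 cells. Its share of the pair's reads lay between 19.98% in the Afp-low liver and 33.1% in the Afp-high liver. Rps4l, annotated as a transcribed processed pseudogene related to Rps4x of the X chromosome, was similarly patchy. It was detected in 23 of 48 cells on dorsal plate 2A and in 35 of 38 on plate 2B, and held 13.6% and 28.9% of the pair's reads there. In the Col1a1-negative cells it held 41.9%.

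Rpl36al, which the name rule leaves out, was compared with Rpl36a on the X chromosome in the same way. It held 47.05% of the pair's reads in the Afp-high liver, 29.4% in the foregut, 22.9% in the ventral bud and 22.4% in the Afp-low liver. In the Col1a1-positive cells it held 20.1% and in the Col1a1-negative cells 42.1%. The 2 dorsal plates stood as far apart, at 24.1% on 2A and 39.3% on 2B. Rpl3l, Rpl10l and Rpl39l were not analysed here.

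**Figure D5:**
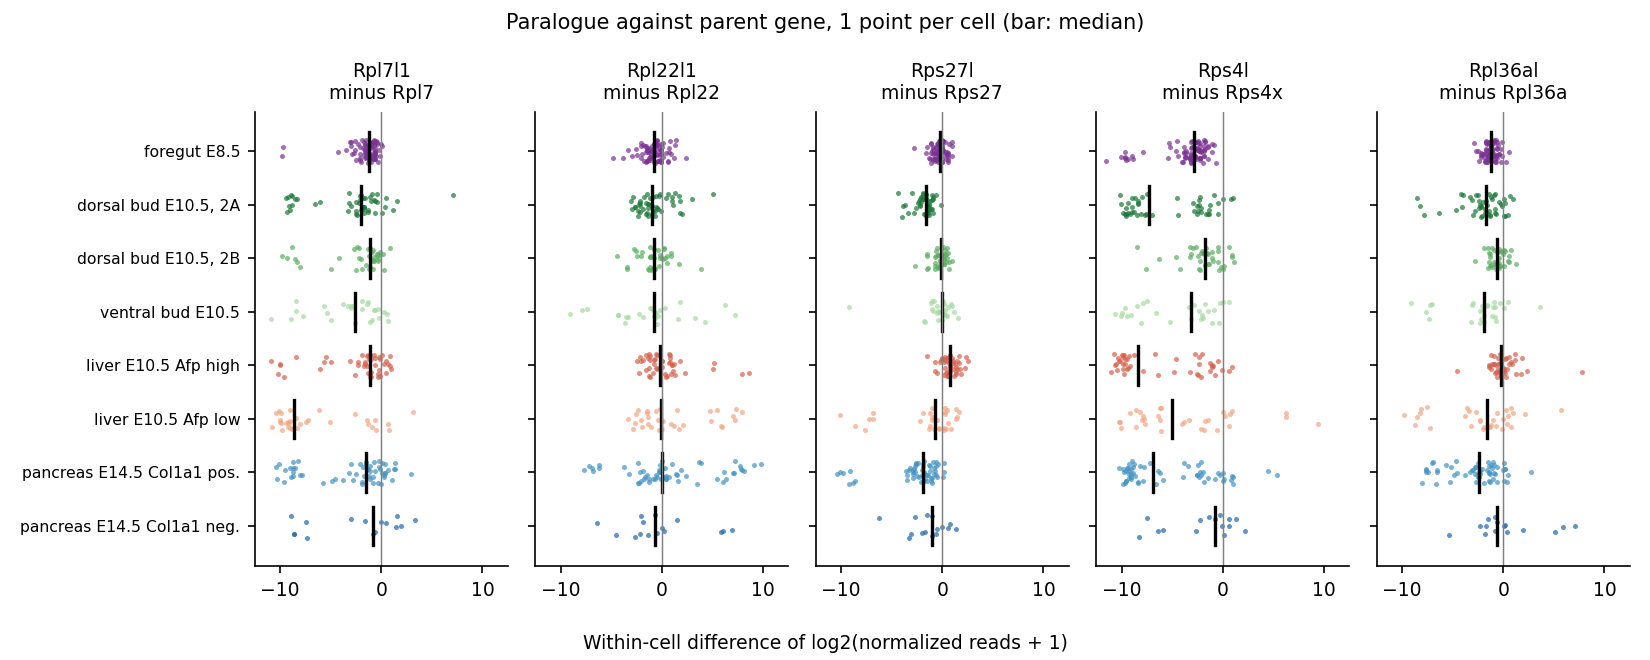
Within-cell difference of log2(normalized reads + 1) between a paralogue and its parent gene (horizontal axis) for 5 pairs (panels) in 8 sets (rows); each point is 1 cell and each bar a median. Rps27l lies above Rps27 in most Afp-high liver cells (39 of 46) and in none of 48 cells of dorsal plate 2A, and Rpl7l1 and Rps4l split into cells near the parent and cells near 0.

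Members followed each other within most sets. For the 80 members detected in at least 50% of cells, rho was taken between a member's log2 level and the sum of the log2 levels of all other members. This sum is not the percent of reads used above. The median rho was 0.75 in the foregut (82 cells), 0.72 and 0.54 on dorsal plates 2B and 2A and 0.59 in the Afp-high liver. It was 0.48 in the Col1a1-negative, 0.32 in the ventral, 0.29 in the Col1a1-positive and 0.26 in the Afp-low cells. Averaged over sets, Rpl7l1 (0.16), Rps4l (0.18) and Rpl22l1 (0.31) followed the others least, while Rps2 (0.64) and Rps18 (0.63) were among those that followed them most. Members share each cell's size factor, which enters these values.

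Other genes of the translation machinery were taken from lists by role. Ribosome biogenesis genes make and fold ribosomal RNA, and all 23 of them were higher in Afp-high than in Afp-low cells, with a median of 2.91. The 78 mitochondrial ribosomal protein genes had a median of 2.44, with 70 higher and 0 lower, and the 16 elongation factor and other TOP genes 1.69, with 11 higher and 0 lower. Of all genes, 36.6% were higher and 7.11% lower. Of 13 genes that control ribosomal protein synthesis 7 were higher, and of 8 housekeeping genes 5, with 0 lower in both lists. As given above, the share higher was larger among genes with a mean of at least 6, close to that of the elongation and TOP genes (68.75%). The control (53.8%) and housekeeping genes (62.5%) lay below it, but above the 36.6% of all genes. The biogenesis (100%) and mitochondrial ribosomal genes (89.7%) lay above both. Some listed genes, such as Max among the control and Polr1a among the biogenesis genes, had means under 6 in every set. The share among genes with a mean of at least 6 is therefore not a matched comparison for these lists.

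Between the dorsal plates 2 of these lists parted from the members. Plate 2B minus 2A, the median difference was 1.53 for biogenesis genes (14 of 23 higher) and 1.24 for mitochondrial ribosomal genes (54 of 78 higher), against 0.13 for the cytosolic ribosomal protein genes and 0.17 for the elongation and TOP genes (1 of 16 higher). Over all genes the median was 0.48, with 29% higher. Foregut minus dorsal gave 1.87 for biogenesis genes, with 22 of 23 higher, and 0.51 for the elongation and TOP genes, with 3 of 16 higher, where 30.9% of all genes were. Col1a1-negative minus dorsal gave -2.10 for biogenesis genes, with 21 of 23 lower, where 51.2% of all genes were.

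All 23 biogenesis genes had a higher mean in the foregut than in the dorsal bud, and in the dorsal bud than in the Afp-low liver. Neither order was counted over all genes, so they do not show a trait of this list. The smallest difference of foregut minus dorsal was 0.0266 (Ubtf). The median number of detected genes also differed, at 4570 and 5390 on dorsal plates 2A and 2B and 2303 in the Afp-low liver. Foregut and Afp-high liver had no common order: 16 were higher in the foregut and 7 in the Afp-high liver, among these Ncl and Nhp2. Ncl, which codes for nucleolin, stood at 10.54 ± 0.95 in foregut cells, 9.31 ± 1.3 in dorsal cells, 11.46 ± 0.83 in Afp-high and 7.31 ± 3.6 in Afp-low liver cells. Nhp2, of the box H/ACA particles that modify ribosomal RNA, stood at 8.14 ± 1.33, 5.08 ± 3.18, 9.0 ± 1.84 and 4.12 ± 4.66 in these sets. Myc, Mycn and Mycl, transcription factors that drive ribosome production, are in the list of control genes. Myc averaged 4.83 ± 4.29 in the Afp-high liver and 3.71 ± 3.68 in foregut cells, and 1.04 ± 2.67 in dorsal cells. Mycn averaged 6.13 ± 3.86 in the foregut and 2.55 ± 3.73 in the Afp-high liver. Mycl averaged 3.83 ± 3.46 in the foregut and was at 0 in all 58 Col1a1-positive cells. Many of these SDs are close to or above the mean.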

How the data were processed

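Cells were sorted by flow cytometry into 96-well plates and made into libraries with Nextera XT, per the labels' protocols. Per the submitters' processing notes, the tools were STAR 2.5.3, Cuffdiff 2.2.1 and Cufflinks, with the mouse build GRCm38. Filters, size factors, annotation release and read counter were not given in the sources used here. Values in the deposited table are on the log2 scale, settled from the values as log2(normalized reads + 1). Undoing the log and each cell's scaling gave whole reads for 1647510 of 1647530 values within 0.01 reads. Empty entries (76.7%) were read as 0. The series' design names 452 processed cells and says that those deposited had passed quality control.

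Shares used the recovered reads. Differences are between mean log2 levels over cells, and a gene was counted at a difference of 1 or more, among 8521 genes with a mean of at least 1. Detection means at least 5 normalized reads. No test was run, since no animal is named. The code was tested on simulated data. Shared 50-base windows and transcript lengths came from GENCODE M21 and promoters from RefSeq.

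The members and all lists were chosen with earlier results of these data known. Named members are the extremes per kilobase, those detected in under 25% of cells, paralogues, the 3 farthest above and below the median in each comparison, the 5 with the widest range of means and the 3 that followed the other members least. Doublets were not called. Values of some genes that this rule names are not reported here. Alternatives covered the pseudocount, scaling, depth, filters, splits, plates and members left out. Python 3.11.15 was used with numpy 2.4.6, pandas 2.3.3, scipy 1.17.1 and matplotlib 3.10.9.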

Additional observations from a re-analysis of the deposited data

How the results depend on the processing

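No paired analysis was possible because the labels name no animal and no replicate number is shared between sets. Among the members' median differences, Afp-high liver minus dorsal bud moved most, from 1.10 to 0.40 with total-read scaling and 0.39 with cells thinned to 500000 reads, and it reversed to -0.0486 with median-of-ratios scaling. With that last scaling, ventral minus dorsal was -0.53 and Col1a1-positive minus dorsal -0.98. Relative to all genes, Afp-high minus dorsal ran from 0.79 to 2.68 and Afp-high minus Afp-low from 0.865 to 1.235. The sign relative to all genes depended on the setting for foregut (-0.11 to 0.58), ventral (-0.01 to 1.0), Col1a1-positive (-0.21 to 1.63) and Col1a1-negative cells (-0.35 to 0.83) minus dorsal, and between the dorsal plates (-0.63 to 0.05). Leaving out the 5 highest members lowered the summed level to 1.86% in the Afp-low and 1.93% in the Col1a1-positive cells, as fewer genes are summed. Rpl22l1 minus Rpl22 in the Afp-low liver was -0.0074 as a log2 ratio of linear means, against 1.19 as a mean over cells. In settings with all 84 members, the number higher ran from 56 to 71 for Afp-high minus Afp-low, 6 to 18 for Col1a1-positive minus negative, 8 to 29 for foregut minus dorsal and 2 to 63 for Afp-high minus dorsal. The number lower ran from 0 to 41 for Col1a1-positive and 12 to 47 for Col1a1-negative minus dorsal. Col1a1-positive minus negative had medians from 0.13 to 0.52. The share of all genes past a difference of 1 moved by over 1.5 times for 10 of 16 values of genes higher and 12 of 16 of genes lower, when the filter on low genes was dropped or raised to a mean of at least 6. The Epcam splits and the linear ratio were chosen after seeing the data; the causes of these shifts were not tested.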
